A study of Mus musculus with 4 samples.

Results

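The 40 genes described here drive the cell through DNA replication and mitosis: the G1 cyclins and their kinases, the factors of the G1/S transition, the proteins that license replication origins, enzymes and clamps of DNA synthesis, the kinases and cyclins of mitotic entry, and the spindle checkpoint with its motors. They were listed by name, and the rule that reads them uses no difference between arrays. Each gene was read from the array probe sets annotated to its symbol alone, and where it had several, from the one with the highest mean signal over the arrays. This gave 39 of the 40 genes a value, out of 18193 genes with a probe set of their own. Ccnb1 (cyclin B1) was not analysed here, since no probe set was named for it alone. All 39 were among the 12483 genes that passed the filter on dim signals.

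Total RNA from mouse E14.1 embryonic stem (ES) cells, a line derived from the inner cell mass, was hybridised to 4 Affymetrix arrays, 1 for each combination of 2 genotypes and 2 culture conditions. The groups were Sall4-null cells (delta/-, line KO1) on feeder cells, Sall4-null cells without feeders, Sall4 heterozygous cells (flox/-, line HET18) on feeder cells, and Sall4 heterozygous cells without feeders. Sall4 encodes a zinc finger protein of early embryonic and ES cells. All cells had been electroporated with a vector that places an IRES-blasticidin-resistance gene at Oct3/4, and all were grown with leukaemia inhibitory factor (LIF) and blasticidin, which favours cells that express Oct3/4. The cultures without feeders stood on gelatin. The feeders were blasticidin-resistant fibroblasts, and the labels do not say whether their division had been arrested. Each genotype was 1 clonal line, so line and genotype cannot be told apart. No group had a replicate, and the precision of all values is limited by the number of arrays.

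As background, cyclins D and E with their kinases inactivate the retinoblastoma protein and release E2F factors, which transcribe the genes for origin licensing and DNA synthesis. A second set of genes, for G2 and mitosis, is transcribed later in the cycle through the MuvB complex with B-Myb and FoxM1. Mouse ES cells are known for a short G1 phase, for cyclin E activity that varies little through the cycle, and for low levels of D-type cyclins compared with fibroblasts and other somatic cells.

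Values are MAS5 signals, a brightness on a linear scale that was set to the same trimmed mean on every array. Differences are on the scale log2(signal + 4.6), which understates those of dim probe sets. An additive limma model of genotype and feeders gave each fitted difference, its standard error (SE) and a p-value adjusted over all genes by the Benjamini-Hochberg method. A gene was called when the adjusted p was under 0.05. Differences within a pair of arrays are values with no test. Signals of different genes come from different probes and are not compared with each other.

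All arrays carried ES cell transcripts: Nanog, a pluripotency factor, had 1394.4 in null and 2068.8 in heterozygous cells on feeders, against 1232.1 in null and 1744.8 in heterozygous cells without feeders. The 17 ES cell markers summed to 32376.1 in null and 33490.6 in heterozygous cells on feeders, against 30728.2 in null and 35891.9 in heterozygous cells without feeders. The 25 measured fibroblast markers of the 26 listed summed to 32908.8 in null and 24510.1 in heterozygous cells on feeders, against 11951.4 in null and 5155.2 in heterozygous cells without feeders. The model called 21 of these 25 higher on feeders. Of 9 macrophage and blood markers, 4 passed the filter and 1 was called higher on feeders. This was Lyz2, a lysozyme gene of macrophages, with 168.3 in null and 141.6 in heterozygous cells on feeders, against 8.6 in null and 1.6 in heterozygous cells without feeders. Ptprc and Itgam, also of blood cells, were at 10.0 or less on every array. The part of Lyz2-expressing cells in the feeder differences was not tested. The on-feeder arrays thus held RNA of fibroblasts as well as of ES cells, and in such bulk samples a smaller share of ES cells and less RNA of a gene per ES cell cannot be told apart. Sall4 itself had signals of 1452.4 in null and 780.8 in heterozygous cells on feeders, and 1670.5 in null and 1126.5 in heterozygous cells without feeders. The labels do not state which part of the gene was deleted, so its probe set does not check the genotype, and null means labelled null throughout.

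Most of the cell cycle genes stayed close to one level on all 4 arrays. The ratio of a gene's highest signal to its lowest had a median of 1.26 over the 39 genes, and 32 of them (82.1%) stayed under 1.5. Over all 12483 genes the median was 1.57, with 44.7% under 1.5. Bright probe sets vary less, and the 976 tested genes brighter than the cell cycle genes' own median signal of 914.6 had a median of 1.26, with 81.1% under 1.5. Those genes are all brighter than the dimmer cell cycle genes, so this is not a comparison at equal brightness. The 7 that passed 1.5 were all genes of G1, the G1/S transition or licensing: Ccnd2 at 34.2, Ccnd1 at 3.38, Ccne1 at 2.31, Ccne2 at 1.88, Cdk6 at 1.77, Cdc6 at 1.59 and Cdc25a at 1.55. All 7 also had mean signals under the cell cycle genes' median of 914.6, so phase and brightness are not separated here.

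**Figure D1:**
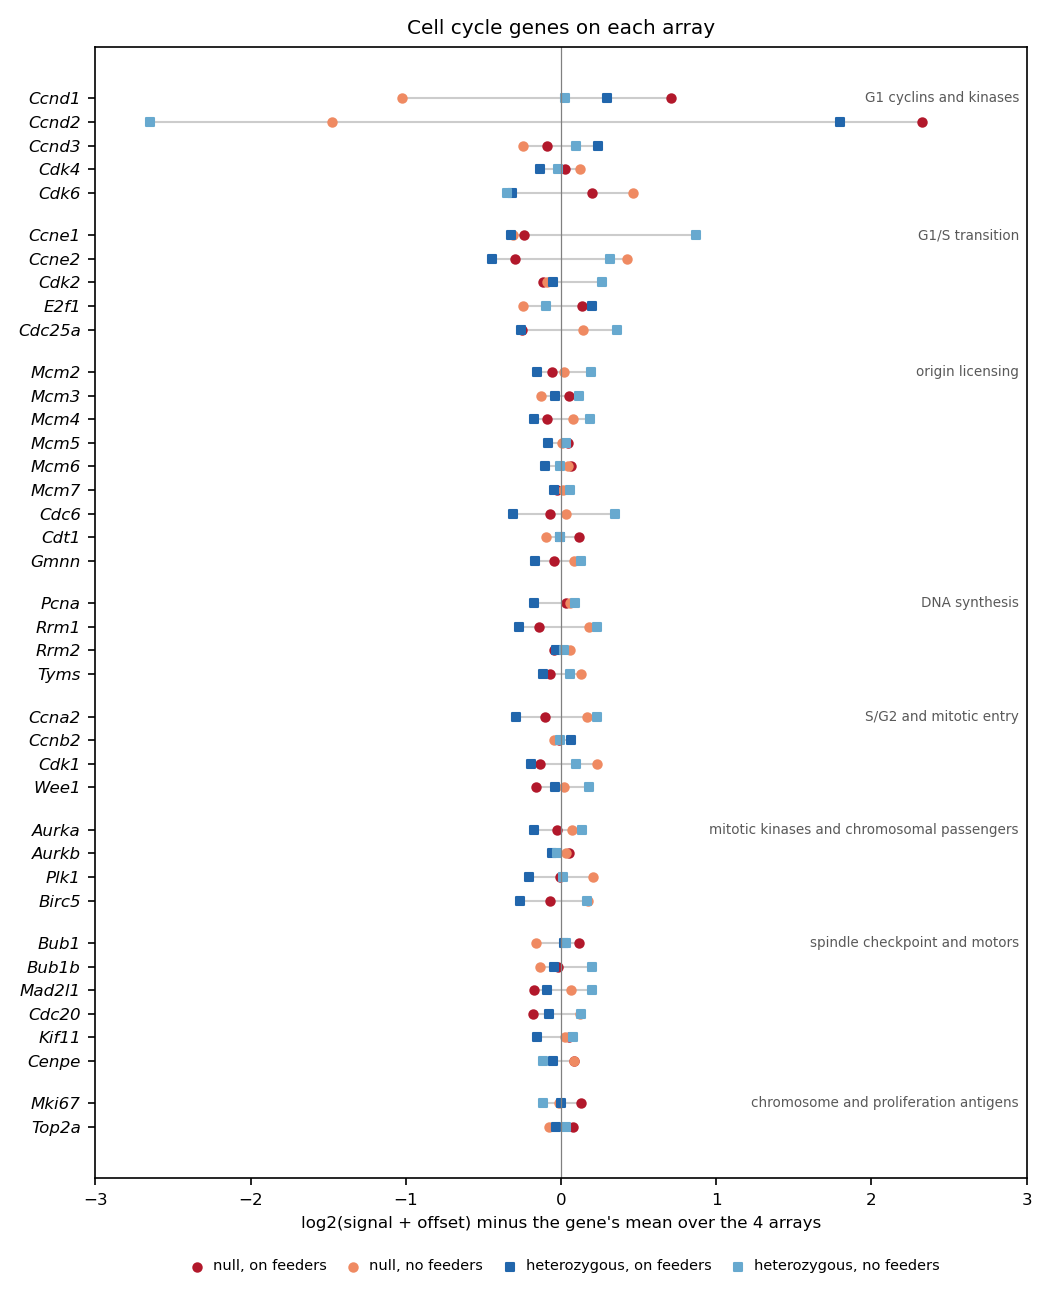
Signals of the 39 measured cell cycle genes on each of the 4 arrays, as log2(signal + offset) minus the gene's own mean over the arrays, grouped by phase; circles are null and squares heterozygous cells, darker on feeders and paler without. Points of most genes lie close together, with the widest spreads in Ccnd2, Ccnd1 and Ccne1.

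The only cell cycle gene that the model called was Ccnd2, which rose on feeders. It encodes cyclin D2, an activating partner of CDK4 and CDK6. Its signal was 1760.5 in null and 1220.5 in heterozygous cells on feeders, against 122.2 in null and 51.5 in heterozygous cells without feeders. Both on-feeder arrays were far above both arrays without feeders. The fitted difference was 4.12 (SE 0.20, adjusted p 0.000967), a 17.4-fold rise, which ranked 39 of 12483 genes by size and 15 by p-value. It was 3.80 in null and 4.45 in heterozygous cells. All 7 probe sets for Ccnd2 were higher on both on-feeder arrays, and the fitted differences of the other 6 lay between 2.41 and 4.13. The summed fibroblast markers were higher on the same arrays, and their part in the rise of Ccnd2 was not tested.

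Between genotypes, Ccnd2 was higher in null than in heterozygous cells in both conditions, by 0.53 on feeders and 1.18 without. The fitted difference was 0.85 (SE 0.20), with an unadjusted p of 0.0056 and an adjusted p of 0.222, so it was not called. Every one of the 7 probe sets was higher in null cells in both conditions, with fitted differences of 0.74 to 1.24. The fibroblast markers had the same order: their median difference, null minus heterozygous, was 0.50 on feeders and 1.18 without. Their part in the genotype difference of Ccnd2 was not tested.

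Ccnd1 encodes cyclin D1, the D-type cyclin that growth factors induce in many somatic cells. Its signal was 690.0 in null and 516.6 in heterozygous cells on feeders, against 204.1 in null and 427.8 in heterozygous cells without feeders. On this probe set the low value was that of null cells without feeders. The feeder difference was 1.73 in null and 0.27 in heterozygous cells, and the fitted one was 1.00 (SE 0.33, unadjusted p 0.0255, adjusted p 0.165). The genotype difference changed sign with the condition, 0.41 on feeders and -1.05 without. All 3 Ccnd1 probe sets were higher in null cells on feeders and lower in null cells without them. They disagreed on feeders in heterozygous cells, where the other 2 gave 1.24 and -0.33.

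Ccnd3, cyclin D3, had 365.4 in null and 459.6 in heterozygous cells on feeders, and 327.7 in null and 416.1 in heterozygous cells without feeders. Both null arrays were below both heterozygous arrays, with a fitted genotype difference of -0.33 (SE 0.14, adjusted p 0.422). Its feeder difference was 0.15. The 3 D-type cyclins therefore differed among themselves: D2 was higher in null cells in both conditions, D3 lower in both, and D1 higher only on feeders, without any of these differences passing the test.

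Of the kinases that the D-type cyclins activate, Cdk6 varied more than Cdk4. It had 305.7 in null and 212.3 in heterozygous cells on feeders, and 366.7 in null and 207.5 in heterozygous cells without feeders. Both null arrays were above both heterozygous ones, by 0.52 on feeders and 0.81 without, and the fitted difference was 0.66 (SE 0.17, unadjusted p 0.0078, adjusted p 0.241). The other bright Cdk6 probe set gave 0.77. Cdk4 had 1413.7 in null and 1265.0 in heterozygous cells on feeders, and 1510.7 in null and 1370.6 in heterozygous cells without feeders. Its null arrays were also the higher ones in each condition, by a fitted 0.15. The feeder differences of both kinases were -0.11.

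**Figure D2:**
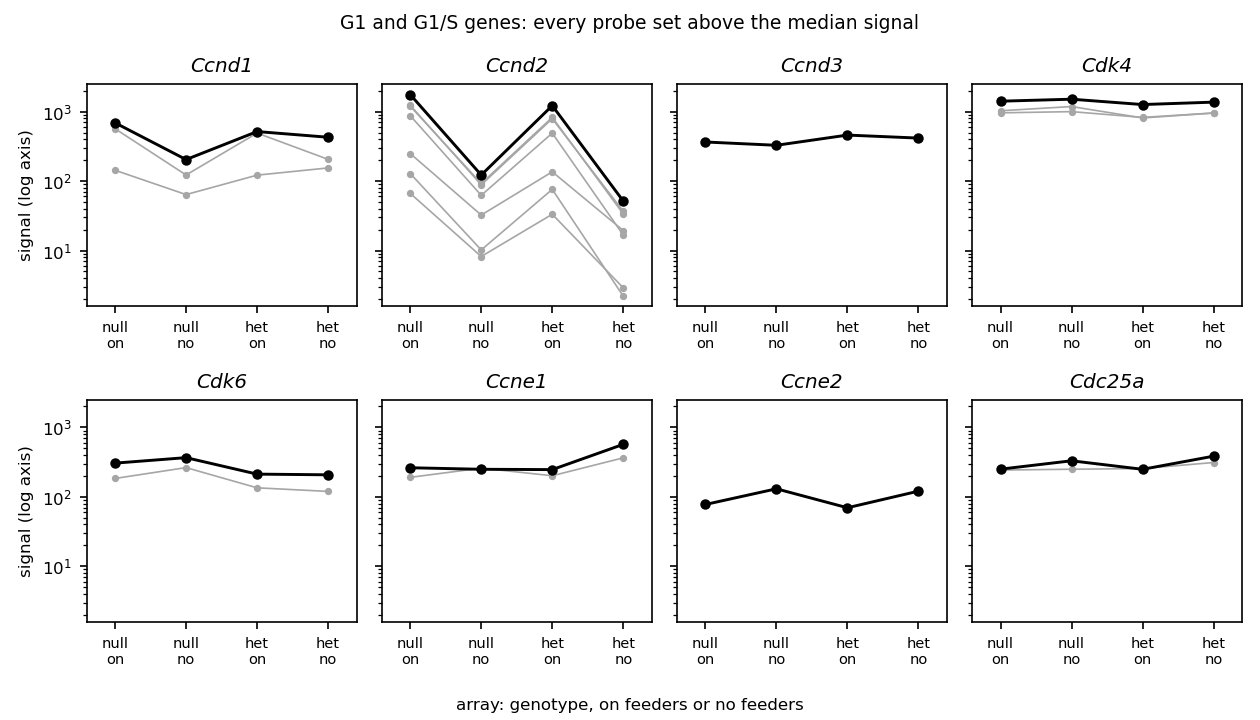
Signals on a log axis for 8 genes of G1 and the G1/S transition, 1 panel per gene, over the 4 arrays (null on feeders, null without, heterozygous on feeders, heterozygous without). Black lines are the probe set used and grey lines the gene's other probe sets above the median signal of 17.1. All 7 Ccnd2 probe sets are high on both on-feeder arrays, and the other panels are flatter.

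At the G1/S transition the cyclins E separated from each other. Ccne1, cyclin E1, had 262.2 in null and 246.6 in heterozygous cells on feeders, and 249.3 in null and 569.7 in heterozygous cells without feeders. One array stood above the rest, that of heterozygous cells without feeders. The genotype difference was 0.09 on feeders and -1.18 without, fitted at -0.55 (SE 0.30, adjusted p 0.53). The feeder difference was 0.07 in null and -1.19 in heterozygous cells. A second Ccne1 probe set had 190.8 in null and 201.2 in heterozygous cells on feeders, and 258.9 in null and 364.5 in heterozygous cells without feeders, so the same array was highest there, by less.

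Ccne2, cyclin E2, had 77.6 in null and 69.6 in heterozygous cells on feeders, against 130.5 in null and 120.7 in heterozygous cells without feeders. Both on-feeder arrays were lower, by a nearly equal amount in the 2 genotypes, and the fitted feeder difference was -0.74 (SE 0.19, unadjusted p 0.0081, adjusted p 0.0948). This was the lowest feeder difference among the 39 genes, and it did not pass the test. Cdc25a, the phosphatase that removes inhibitory phosphates from CDK2, had 250.3 in null and 249.1 in heterozygous cells on feeders, against 330.4 in null and 385.1 in heterozygous cells without feeders. Its fitted feeder difference was -0.51 (adjusted p 0.144). A second Cdc25a probe set gave a fitted -0.16, with -0.04 in null and -0.28 in heterozygous cells. Cdk2, the kinase that the E cyclins activate, had 332.5 in null and 347.1 in heterozygous cells on feeders, and 338.3 in null and 433.5 in heterozygous cells without feeders. E2f1, a transcription factor of S phase genes, was the one gene of this phase with higher signals on feeders, at 116.7 in null and 122.0 in heterozygous cells, against 88.5 in null and 98.6 in heterozygous cells without feeders (0.34, SE 0.18).

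Origin licensing loads the MCM2-7 helicase onto DNA in G1 through CDC6 and CDT1, and geminin (Gmnn) blocks CDT1 afterwards. The ratio of highest to lowest signal lay between 1.07 (Mcm7) and 1.28 (Mcm4) in the 6 helicase genes. The fitted genotype differences of the 9 licensing genes ran from -0.07 to 0.11, with adjusted p of at least 0.688, where the 2 conditions mostly had opposite signs. Mcm7 had 3061.2 in null and 3018.8 in heterozygous cells on feeders, and 3149.2 in null and 3244.4 in heterozygous cells without feeders. Mcm6 had 1736.3 in null and 1545.0 in heterozygous cells on feeders, and 1712.8 in null and 1656.5 in heterozygous cells without feeders. Both were nearly level across the arrays. On the probe sets used, Mcm4 had the largest feeder difference among the helicase genes, -0.26 (unadjusted p 0.0438). It had 1264.0 in null and 1192.3 in heterozygous cells on feeders, against 1421.9 in null and 1531.4 in heterozygous cells without feeders. A second Mcm4 probe set gave a fitted -0.06, with 0.09 in null and -0.21 in heterozygous cells. A second Mcm2 probe set gave a fitted -0.29.

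Among the loaders, Cdc6 varied most. It had 346.5 in null and 292.8 in heterozygous cells on feeders, against 372.2 in null and 465.7 in heterozygous cells without feeders, a fitted feeder difference of -0.38 (SE 0.18, adjusted p 0.214). Cdt1 had 2543.1 in null and 2335.5 in heterozygous cells on feeders, and 2196.6 in null and 2337.1 in heterozygous cells without feeders, so only its null arrays differed visibly. Gmnn had 1091.7 in null and 999.9 in heterozygous cells on feeders, against 1192.2 in null and 1229.9 in heterozygous cells without feeders. Its fitted feeder difference was -0.21. The direction between genotypes depended on the condition: all 9 licensing genes were higher in null cells on feeders, by 0.02 to 0.24, and 8 of the 9 were lower in null cells without feeders, the exception being Mcm6 at 0.05. On feeders this direction depended on the probe set: others above the median signal were lower in null cells for Mcm3 (down to -0.23), Mcm5 (-0.03), Mcm7 (-0.15 and -0.06) and Cdt1 (-0.08). Without feeders a second Mcm6 probe set was lower in null cells, at -0.19.

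All 4 genes of DNA synthesis had lower signals on feeders in both genotypes on the probe sets used, and none passed the test. Rrm1, the large subunit of ribonucleotide reductase, had 884.2 in null and 808.0 in heterozygous cells on feeders, against 1110.1 in null and 1148.9 in heterozygous cells without feeders. The fitted difference was -0.42 (SE 0.11, unadjusted p 0.0109, adjusted p 0.108). Its small-subunit partner Rrm2 moved less, at -0.08, with 2506.1 in null and 2525.0 in heterozygous cells on feeders, against 2686.8 in null and 2624.1 in heterozygous cells without feeders. Pcna, the sliding clamp of DNA polymerases, had 4506.2 in null and 3905.1 in heterozygous cells on feeders, against 4582.8 in null and 4700.2 in heterozygous cells without feeders. The array of heterozygous cells on feeders was the low one. Tyms, thymidylate synthase, was read from a dim probe set with signals of 26.3 to 31.9. Another dim Tyms probe set had feeder differences of 0.14 in null and -0.37 in heterozygous cells.

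Several genes of mitotic entry were lower on feeders without passing the test. Cdk1, the mitotic kinase, had 1383.0 in null and 1330.8 in heterozygous cells on feeders, against 1791.1 in null and 1630.7 in heterozygous cells without feeders (-0.33, SE 0.09, unadjusted p 0.0122). Ccna2, cyclin A2, which acts in S phase and G2, had 840.7 in null and 739.5 in heterozygous cells on feeders, against 1015.1 in null and 1063.1 in heterozygous cells without feeders (-0.40, SE 0.12, unadjusted p 0.0179). A second Ccna2 probe set gave a smaller fitted feeder difference, -0.13. The on-feeder arrays of Cdk1 and Ccna2 lay below both arrays without feeders. Ccnb2, cyclin B2, did not follow them, with 1236.0 in null and 1303.1 in heterozygous cells on feeders, and 1207.0 in null and 1242.0 in heterozygous cells without feeders (0.05). Wee1, the kinase that holds CDK1 inactive, had 411.3 in null and 449.1 in heterozygous cells on feeders, and 468.0 in null and 523.7 in heterozygous cells without feeders.

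Of the mitotic kinases and the chromosomal passengers, Birc5 (survivin) had the largest feeder difference, with 1167.6 in null and 1019.2 in heterozygous cells on feeders, against 1383.4 in null and 1379.0 in heterozygous cells without feeders (-0.34, unadjusted p 0.0195). Aurkb, its kinase partner in the passenger complex, was level at 199.7 to 215.6 on the 4 arrays (-0.01) on the probe set used. A second Aurkb probe set was higher on feeders (0.28). It had 229.2 in null and 217.6 in heterozygous cells on feeders, against 173.7 in null and 193.8 in heterozygous cells without feeders. Aurka and Plk1, kinases of spindle assembly, had feeder differences of -0.20 and -0.22 on the probe sets used. A dim second Aurka probe set was higher on feeders in both genotypes (0.58). Plk1 was higher in null cells in both conditions, with 528.0 in null and 459.6 in heterozygous cells on feeders and 612.6 in null and 535.3 in heterozygous cells without feeders (0.20, adjusted p 0.598). In this phase group the 4 fitted genotype differences were all positive on the probe sets used, from 0.04 to 0.20, none past the test. Second probe sets gave -0.04 for Aurkb and 0.59 for Aurka, the latter dim.

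The spindle checkpoint holds anaphase until every chromosome is attached, by keeping CDC20 from activating the anaphase-promoting complex. Cdc20 had 3281.6 in null and 3523.2 in heterozygous cells on feeders, against 4050.0 in null and 4069.3 in heterozygous cells without feeders (-0.26, SE 0.07, unadjusted p 0.0097, adjusted p 0.102). Mad2l1, a checkpoint protein that binds CDC20, had 1555.7 in null and 1649.5 in heterozygous cells on feeders, against 1833.1 in null and 2012.6 in heterozygous cells without feeders (-0.26, unadjusted p 0.0248). Both were lower on feeders in each genotype. The checkpoint kinase genes did not share this on the probe sets used. Bub1 ran from 994.5 to 1206.1 over the 4 arrays with a feeder difference of 0.13, and Bub1b from 437.8 to 552.0 with -0.06. A second Bub1b probe set was lower on feeders in each genotype, at -0.08 in null and -0.15 in heterozygous cells. A dim second Bub1 probe set gave a fitted -0.26. The spindle motors Kif11 (393.8 to 463.1) and Cenpe (299.9 to 346.0) had feeder differences of -0.10 and 0.03 on the probe sets used. The other 2 Kif11 probe sets were lower on feeders in both genotypes, at -0.28 and -0.35, and a dim Cenpe probe set gave -0.55. Mki67, the proliferation antigen Ki-67, and Top2a, the topoisomerase that untangles chromosomes, were close to level. They had 713.1 to 845.1 and 1843.8 to 2051.7, with feeder differences of 0.13 and 0.04.

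**Figure D3:**
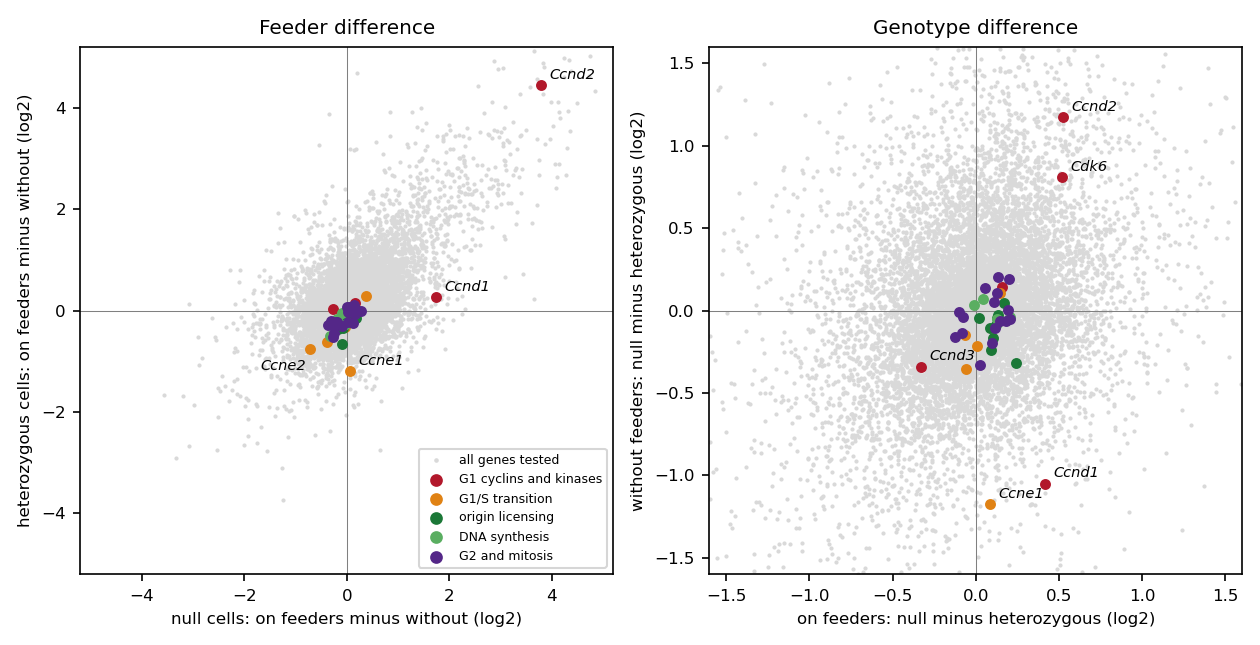
Log2 differences of single pairs of arrays, on feeders minus without in null cells (x) and heterozygous cells (y) at left, and null minus heterozygous on feeders (x) and without feeders (y) at right; grey points are the genes tested and coloured points the cell cycle genes by phase. Genes beyond the axes are not drawn. Ccnd2 stands out at left, at 3.80 and 4.45, and most other coloured points lie near 0.

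Counted over the list, the feeder comparison called 1 of 39 genes higher (Ccnd2) and 0 lower, where the background over all tested genes was 4.01% higher and 0.921% lower. The genotype comparison called 0 higher and 0 lower by limma, against backgrounds of 0.016% and 0.032%. At an unadjusted p under 0.05 there were 2 higher on feeders (Ccnd1 and Ccnd2) and 9 lower, or 23.1% of the list (Ccne2, Cdc25a, Mcm4, Rrm1, Ccna2, Cdk1, Birc5, Mad2l1 and Cdc20), with backgrounds of 14.1% and 7.82%. Between genotypes 2 were higher in null cells at that threshold (Ccnd2 and Cdk6) and 0 lower, with backgrounds of 5.82% and 6.53%. The share lower on feeders was thus above that of all genes, and the shares in the other 3 counts were below it. These counts rest on the probe sets used. Second bright probe sets of Cdc25a, Mcm4 and Ccna2 had weaker fitted feeder differences, at -0.16, -0.06 and -0.13. For Rrm1 a second one gave -0.41, and for Cdc20 the others gave -0.24 and -0.34.

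A size rule with no test asked for at least a 2-fold difference of one sign in both pairs, and left out pairs in which neither array passed the median signal of 17.1. It named 1 of 39 genes on feeders, Ccnd2 again, with a background of 4.04%, and 0 lower, with a background of 0.521%. Between genotypes it named 0 higher and 0 lower, with backgrounds of 0.336% and 0.809%. In single pairs, Ccnd2 was at least 2-fold higher in null cells without feeders (background 4.31%), and Ccnd1 and Ccne1 were at least 2-fold lower there (3.32%). On feeders 0 genes reached 2-fold in either direction between genotypes (1.59% higher and 2.26% lower in the background). By feeders, Ccnd1 and Ccnd2 were at least 2-fold higher in null cells (6.77%) and 0 lower (2.51%), while in heterozygous cells Ccnd2 was higher (8.12%) and Ccne1 lower (1.8%).

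Small differences mostly pointed down on feeders. Both on-feeder arrays were below both arrays without feeders in 19 of 39 genes, with a background of 21.6%, and above them in 4 (Ccnd1, Ccnd2, E2f1 and Mki67), with a background of 27.2%. The 19 came from every phase but the G1 cyclins and kinases and the chromosome antigens. Aurka was among them, though a dim second Aurka probe set was higher on feeders (0.58). Between genotypes, both null arrays were above both heterozygous arrays in 5 genes (Cdk4, Cdk6, Mcm6, Aurkb and Cenpe; background 15.1%) and below them in 3 (Ccnd3, Cdk2 and Ccnb2; background 17.1%). Second probe sets of Mcm6, Aurkb and Cenpe had fitted genotype differences of -0.09, -0.04 and -0.11, while those of Cdk4 and Cdk6 stayed positive. The median fitted feeder difference of the 39 genes was -0.11, beside 0.03 for all genes and -0.07 for the 3121 brightest genes. By genotype of the cells the median was -0.04 in null and -0.21 in heterozygous cells. The summed fibroblast markers were higher on the on-feeder arrays, and the part of fibroblast RNA in these small differences was not tested. With arrays centred on the level of the ES cell markers, the median became 0.23, beside 0.37 for all genes, so the downward sign depends on that scaling. It stayed negative with centring on the change of those markers (-0.14, beside 0.01 for all genes), which was added after seeing the data. Quantile normalization (-0.10) and median centring (-0.18) also kept it negative.

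The array of heterozygous cells on feeders was the lowest of the 4 for 21 of the 39 genes (53.8%, beside 23.5% of all genes), and that of heterozygous cells without feeders was the highest for 18 (46.2%, beside 25.1%). The genotype differences had opposite signs in the 2 conditions accordingly: 31 of 39 genes were higher in null cells on feeders, with a median of 0.11, and 26 of 39 were lower in null cells without feeders, with a median of -0.05. Over all genes 51.0% were higher in null cells on feeders and 49.5% were lower without feeders. On feeders the sign depended on the probe set for the licensing genes named above and others. For Bub1b the probe set used gave 0.03 and a second one -0.12. The standard errors of the fitted differences ran from 0.07 to 0.33 over the 39 genes, and with 1 array per group these medians cannot be told apart from differences between single cultures. The ES cell markers had medians of 0.01 on feeders and -0.31 without.

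**Figure D4:**
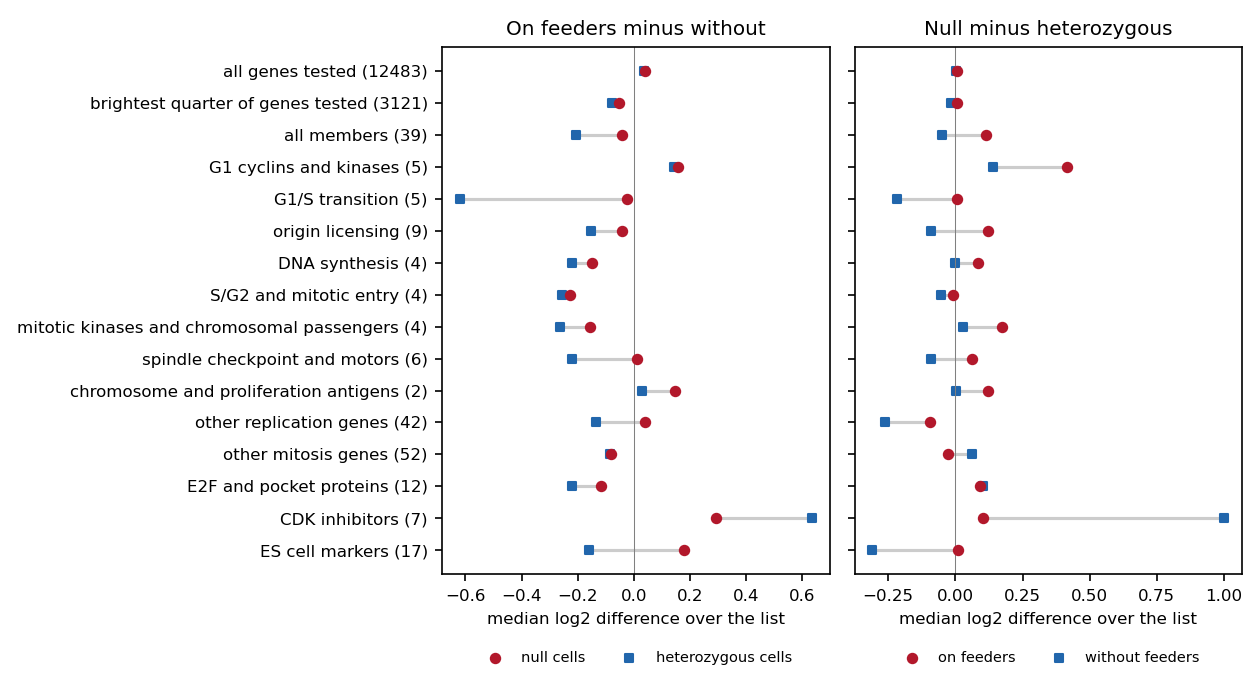
Median log2 difference of each gene list, on feeders minus without (left, in null and heterozygous cells) and null minus heterozygous (right, on and without feeders), with the number of tested genes in brackets. The fibroblast markers, with medians of 3.19 and 4.10 at left, are not drawn. Among the phase groups the points farthest from 0 are the G1/S genes by feeders in heterozygous cells, at -0.62, and the G1 cyclins and kinases between genotypes on feeders, at 0.41; the CDK inhibitors reach 1.00 between genotypes without feeders and 0.10 on feeders.

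Other genes of the same pathways were read from wider lists. Of 42 other replication genes tested, 0 passed the adjusted threshold in either comparison. Their median genotype difference was -0.09 on feeders and -0.26 without feeders, where 38 of 42 were lower in null cells, beside 49.5% of all genes. Both null arrays were below both heterozygous ones in 18 of 42 (42.9%), beside 17.1% of all genes. Pold2, a subunit of DNA polymerase delta, had 443.2 in null and 686.9 in heterozygous cells on feeders, and 343.0 in null and 595.6 in heterozygous cells without feeders (-0.71, SE 0.14, adjusted p 0.173). Prim2 of the primase (-0.57), Gins1 of the GINS complex (-0.35) and Rfc2 of the clamp loader (-0.33) came next. By feeders the largest differences were those of Fen1, the flap endonuclease (-0.58), Dut, the dUTPase (-0.46), and the origin recognition genes Orc2 (-0.35) and Orc5 (0.35).

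Of 52 other mitosis genes, 0 passed in either comparison, and their median genotype difference was -0.03 on feeders and 0.06 without. Pttg1, securin, had 1115.0 in null and 2129.8 in heterozygous cells on feeders, and 1628.9 in null and 2253.9 in heterozygous cells without feeders (-0.70, SE 0.13, adjusted p 0.162). Mybl2, which encodes B-Myb, had 597.5 in null and 827.3 in heterozygous cells on feeders, and 457.3 in null and 840.0 in heterozygous cells without feeders (-0.67, SE 0.15, adjusted p 0.206). Both genes were lower in null cells in each condition. Mad1l1 (0.57) and Melk (-0.42) followed by size. By feeders the largest were Nuf2 of the kinetochore (-0.86), Foxm1 (-0.67), Cdc27 of the anaphase-promoting complex (-0.37) and Pttg1 (-0.31).

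The 12 E2F and pocket protein genes had 0 calls. Their largest genotype differences were those of E2f8 (0.39), Rb1 (0.36), E2f2 (0.33) and E2f5 (-0.18), and their largest feeder differences those of Rbl2 (0.91), E2f8 (-0.66), E2f7 (-0.53) and Rbl1 (0.49). Among 7 CDK inhibitors, Cdkn1a (p21) rose on feeders, with 1177.2 in null and 1254.4 in heterozygous cells, against 452.4 in null and 199.4 in heterozygous cells without feeders (a 3.99-fold fitted difference, adjusted p 0.021). It was the 1 call in that list. Cdkn2c (0.90), Cdkn1b (0.63) and Cdkn2b (0.58) were the next by feeders. Without feeders all 7 inhibitors were higher in null cells, by 0.01 to 1.71 with a median of 1.00, beside 50.3% of all genes. On feeders 6 of 7 were higher, with a median of 0.10, beside 51.0% of all genes. Their fitted genotype differences were led by Cdkn2a (0.90), Cdkn1c (0.77), Cdkn2b (0.74) and Cdkn1a (0.54), and none passed. Cdkn2a, Cdkn2b and Cdkn1a differed mainly without feeders, at 1.71, 1.43 and 1.16, against 0.09, 0.05 and -0.09 on feeders. Cdkn1c had 1.00 without feeders and 0.54 on feeders. Cdkn2a was dim, with 19.3 in null and 17.9 in heterozygous cells on feeders, and 42.9 in null and 9.9 in heterozygous cells without feeders. By feeders 5 of the 7 inhibitors had higher and 2 had lower fitted values, and Cdkn2a and Cdkn1c were both at -0.18. The summed fibroblast markers were higher on both on-feeder arrays, and in null cells in each condition. The part of fibroblast RNA in the values of these inhibitors was not tested.

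Promoter sequence was not used in choosing the genes. RefSeq windows (GRCm38.p6) from 250 bases before to 50 bases after the annotated start were available for 32 of the 40 genes and 27025 genes in all. They were searched on both strands for an E2F motif (TTTCCCGC or TTTGGCGC), for the cell cycle genes homology region (CHR, TTTGAA), to which MuvB binds, and for CCAAT, the motif of NF-Y. An E2F motif was present in 8 of the 32 windows (25%), beside 1.8% of all genes: Cdk2, Cdc25a, Mcm3, Mcm5, Mcm6, Mcm7, Cdc6 and Cdt1. All 8 belong to the G1/S transition or to origin licensing, where 6 of 7 licensing windows and 2 of 4 G1/S windows held one. None was found in the 3 windows of G1 cyclins and kinases, the 4 of DNA synthesis genes or the 14 of G2 and mitosis genes. A CHR was present in 9 of those 14 (64.3%), beside 20.2% of all genes: Ccnb2, Cdk1, Aurka, Plk1, Bub1b, Cdc20, Kif11, Mki67 and Top2a. All 9 also held CCAAT, and CHR with CCAAT was found in 7.97% of all genes. CCAAT, with or without a CHR, was common, in 12 of the 14 windows and in 23 of the 32 (71.9%), beside 41.1% of all genes. Outside these phases Mcm2 was the 1 gene with a CHR. A match of letters is a description of the window and does not show binding.

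The 150 bases before the start are shown for a licensing gene and a G1/S gene with E2F motifs, 2 mitotic genes with CHR motifs, and Ccne1, which had one of the widest spreads. Each stretch is read 5′ to 3′ on the strand of its gene, which is the minus strand for all 5, and capitals mark the motifs in either orientation. No motif overlapped another in these stretches.
Mcm6, chr1:128359706-128359855: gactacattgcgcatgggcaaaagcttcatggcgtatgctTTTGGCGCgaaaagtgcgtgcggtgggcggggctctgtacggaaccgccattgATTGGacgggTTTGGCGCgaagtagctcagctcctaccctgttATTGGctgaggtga
Cdk2, chr10:128705052-128705201: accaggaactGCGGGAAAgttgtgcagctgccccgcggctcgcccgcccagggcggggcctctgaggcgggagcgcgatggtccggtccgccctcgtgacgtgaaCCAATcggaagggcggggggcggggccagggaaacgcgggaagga
Cdk1, chr10:69352913-69353062: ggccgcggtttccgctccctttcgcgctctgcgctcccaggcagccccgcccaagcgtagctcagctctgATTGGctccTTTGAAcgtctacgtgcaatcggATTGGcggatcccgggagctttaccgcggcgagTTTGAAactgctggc
Cdc20, chr4:118437344-118437493: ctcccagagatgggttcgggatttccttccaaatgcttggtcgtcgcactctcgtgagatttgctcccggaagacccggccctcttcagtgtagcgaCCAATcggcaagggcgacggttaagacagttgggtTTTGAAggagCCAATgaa
Ccne1, chr7:38107491-38107640: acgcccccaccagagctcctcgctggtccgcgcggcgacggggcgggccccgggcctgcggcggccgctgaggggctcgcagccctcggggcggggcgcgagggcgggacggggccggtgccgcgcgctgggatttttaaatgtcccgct

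Mcm6 held 2 E2F motifs, starting 110 and 47 bases before the start, and 2 CCAAT motifs. Cdk2 held 1 E2F motif, 140 bases before the start. Cdk1 held 2 CHR motifs, 71 and 15 bases before the start, each downstream of a CCAAT motif. Cdc20 held 1 CHR, 18 bases before the start, between a pair of CCAAT motifs. The stretch of Ccne1 held none of these letters. Genes with an E2F motif had a median feeder difference of -0.06 (n = 8) and a median genotype difference of -0.03, and genes with a CHR had -0.15 (n = 10) and 0.02, so both sets were near the median of the whole list.

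Where a cell cycle gene had other probe sets above the median signal, they mostly pointed the same way as the one used. There were 42 such probe sets for 27 of the genes. The sign of the fitted feeder difference was the same in 36 of the 42, and that of the genotype difference in 33.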

How the data were processed

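The deposited values were MAS5 signals (array intensity on a linear scale, without a version), per the submitters' processing notes. Each of the 4 arrays had a 2% trimmed mean of 100.001, so no further scaling was applied. Of 45101 probe sets, 64 were controls, 34945 had 1 gene symbol in GEO's platform annotation, 932 had more than 1 and 9160 were missing from that table. Probe sets without exactly 1 symbol were not used. Genes whose mean log2 signal was under the 40th percentile (signal 9.46) were left out. The offset of 4.6 was the 25th percentile of all signals.

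The model (limma 3.58.1, R 4.3.3, lmFit and eBayes with a variance trend) used all 4 arrays, 1 per group, and left 1 residual degree of freedom beside 4.76 prior ones. Tests were two-sided. The fit was tested on simulated data, where its share of false calls was above the threshold. The p-values rest on how far the 2 pairs of arrays differ and on a variance trend taken from all genes. They do not measure a spread between repeated cultures. The labels do not say that cultures were repeated. The genes, wider lists, markers and tests were chosen with earlier results of these data known. All 40 genes are named; from the wider lists the 4 with the largest fitted difference per comparison are. The alternatives tried are named in the closing section.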

Additional observations from a re-analysis of the deposited data

Results flagged for a closer look

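Ccnd1 and Ccne1 had genotype differences of opposite sign in the 2 culture conditions with a wide gap between them. Other cell cycle genes also had opposite signs, with smaller gaps. None of these gaps was tested, because each group had 1 array. For Ccnd1, null minus heterozygous was 0.41 on feeders and -1.05 without, a difference between conditions of 1.47 on the log2 scale. For Ccne1 it was 0.09 on feeders and -1.18 without, a difference of 1.26. The Ccne1 value on feeders is close to 0, so its sign there carries little weight, and a second Ccne1 probe set gave -0.07 on feeders and -0.49 without.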

How the results depend on the processing

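The feeder rise of Ccnd2 stayed past the adjusted threshold under all 11 alternatives run for it, with fitted differences of 3.53 to 4.46. The sign of the fitted difference was kept under every alternative by 27 of 39 cell cycle genes between genotypes and by 11 of 39 by feeders, and 22 of the feeder changes came with centring on the level of the ES cell markers. That centring moved the feeder median of the 39 genes to 0.23 and that of all genes to 0.37, with 3 of the 39 past the adjusted threshold (Ccnd2, Ccnd1 and Cdt1), 13 higher and 0 lower at an unadjusted p under 0.05, and 25 higher and 4 lower with arrays apart. Over all genes it called 1751 higher and 62 lower. Centring on the change of the ES cell markers, added after seeing the data, kept the feeder median of the 39 genes at -0.14. It gave 2 of the 39 past the adjusted threshold and 5 lower at the unadjusted one. Over all genes that centring called 905 higher and 285 lower. Without a variance trend, 1 of the 39 was higher and 2 lower at the unadjusted threshold, and 179 genes were higher and 11 lower by feeders over all genes. Quantile normalization put 8 of the 39 apart and higher on feeders. Median centring put 2 of the 39 apart and higher in null cells and 1 lower at the unadjusted threshold, as no filter did (1); the mean of probe sets put 3 apart and higher. A 1.5-fold size rule named 1 gene lower on feeders, Ccne2. Over all genes, calls by feeders were 256 higher and 38 lower with no filter, 232 and 40 with a filter at the 60th percentile, 321 and 63 with the mean of probe sets, and 67 lower with an offset of 1. Genotype calls were few: higher in null cells fell to 0 with either offset, no filter, the stricter filter, the brightest probe set on the log scale or no trend, and to 1 with the mean of probe sets, and lower calls were 0 with no filter, the stricter filter or no trend. The causes of these shifts were not tested. Leaving out 1 array leaves a single pair with no test: the median over the 39 genes then lay between -0.21 and -0.04 by feeders and between -0.05 and 0.11 by genotype. No paired analysis was possible because each group had 1 array and the labels give no replicate numbers.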
